A study of Mus musculus with 3 samples.

Results

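BET proteins, the positive transcription elongation factor P-TEFb and the 7SK ribonucleoprotein that holds P-TEFb inactive were followed here through 9 genes, found by symbol in the transcript names of the deposited tables: Brd2, Brd3, Cdk9, Ccnt1, Ccnt2, Hexim1, Larp7, Mepce and Rn7sk. All 9 were found, among 55536 annotated genes. The samples were 3 libraries of total RNA-seq, depleted of ribosomal RNA, made from the chromatin fraction of bone marrow-derived macrophages (BMDM) of C57BL/6J mice. Every library had the same treatment: 100 ng/ml lipid A for 12 h, washout for 12 h, then lipid A again at 100 ng/ml for 90 min. Lipid A, the membrane anchor of bacterial endotoxin, is sensed by Toll-like receptor 4. The labels give the libraries separate biological replicate numbers and 1 donor entry, and do not name separate animals, so the spread between them may be partly technical. With 1 group there was no contrast between conditions, and the questions the data could answer were how high each gene stood, in which annotated transcripts, and how well the deposited quantifications agreed on it.

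BET proteins carry bromodomains that bind acetylated histone tails and are known for bringing the transcription machinery to inducible genes in macrophages. P-TEFb is the kinase CDK9 with a cyclin T, and it phosphorylates RNA polymerase II and the factors that hold it paused near the start of a gene, so that elongation goes on. The 7SK RNA, bound by MEPCE and LARP7, holds P-TEFb in an inactive complex through HEXIM proteins, and P-TEFb released from it is free to act. BET inhibitors and P-TEFb inhibitors are widely used to suppress inflammatory transcription in these cells.

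Rn7sk, the 7SK RNA itself, was annotated as a single-exon transcript of 331 bases on the minus strand of chromosome 9 (mm10, 78175303 to 78175633). Its sequence is shown because reads of this RNA have to be told apart from those of many related copies in the genome. The first 300 bases (chr9:78175334-78175633) follow, with the 3 copies of GATC in capitals at bases 13 to 16, 42 to 45 and 64 to 67. GATC has the letters of an element in the 5′ hairpin known for binding HEXIM1. The capitals do not say which of the copies form that element. A blastn search of the annotated transcripts at an e-value of 1e-10 or lower found 195 other misc_RNA transcripts that matched it on the same strand, of which 11 matched over 200 bases or more at 90% identity or more. Gm24447 (chr15:93234363-93234662, plus strand) is shown because its first 241 bases were identical to Rn7sk. Gm23037 (chr17:46403875-46404174, plus strand) is shown because its match ran over the whole of Rn7sk, at 89.2% identity. Gm25265 (chr2:166682074-166682373, plus strand) is shown because it took the most counts of these copies in the alignment-based transcript table, with a match of 249 aligned bases at 72.3% identity. In the 3 copies, capitals mark bases that differ from the aligned base of Rn7sk or have no partner in it. Bases of Rn7sk that a copy lacks leave no mark. Over the whole transcripts these were 15 for Gm24447, 8 for Gm23037 and 22 for Gm25265.
Rn7sk: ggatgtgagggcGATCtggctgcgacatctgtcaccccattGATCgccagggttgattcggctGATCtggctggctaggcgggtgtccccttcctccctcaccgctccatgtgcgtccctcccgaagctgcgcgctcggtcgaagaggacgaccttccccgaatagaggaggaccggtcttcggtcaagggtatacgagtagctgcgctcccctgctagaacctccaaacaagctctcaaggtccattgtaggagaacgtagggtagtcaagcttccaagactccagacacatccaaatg
Gm24447: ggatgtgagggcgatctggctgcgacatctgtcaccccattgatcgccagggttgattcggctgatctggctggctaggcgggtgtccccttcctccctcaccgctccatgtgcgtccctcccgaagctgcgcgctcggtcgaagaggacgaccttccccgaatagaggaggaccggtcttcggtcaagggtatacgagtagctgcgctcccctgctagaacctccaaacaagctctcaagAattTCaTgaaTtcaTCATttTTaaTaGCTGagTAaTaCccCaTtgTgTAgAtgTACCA
Gm23037: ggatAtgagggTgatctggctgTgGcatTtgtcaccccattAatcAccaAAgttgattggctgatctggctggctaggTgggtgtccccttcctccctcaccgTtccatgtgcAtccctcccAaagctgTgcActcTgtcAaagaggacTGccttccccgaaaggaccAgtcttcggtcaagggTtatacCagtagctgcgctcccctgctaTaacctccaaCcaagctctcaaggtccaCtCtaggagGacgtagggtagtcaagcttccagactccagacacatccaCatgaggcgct
Gm25265: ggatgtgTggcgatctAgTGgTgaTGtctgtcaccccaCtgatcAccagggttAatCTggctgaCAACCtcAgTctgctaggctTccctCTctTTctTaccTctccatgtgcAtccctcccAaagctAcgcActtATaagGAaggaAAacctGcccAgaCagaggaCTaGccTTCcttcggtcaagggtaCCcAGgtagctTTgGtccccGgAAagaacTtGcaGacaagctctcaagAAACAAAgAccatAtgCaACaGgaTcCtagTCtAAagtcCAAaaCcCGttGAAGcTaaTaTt

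The copies took few of the counts. Transcript levels were deposited in 2 forms, in an alignment-based table and in another table that gives estimated counts, called the other transcript table here. In the other table, Gm24447 had 30.3, 19.2 and 33.7 estimated counts in replicates 1, 2 and 3, against 0, 1.45 and 0 expected counts in the alignment-based table. Gm23037 had 8, 11 and 14 estimated counts in the other table, against 0, 2 and 2 in the alignment-based table. Gm25265 had 531, 640 and 417 in the other table, against 223, 189 and 120 in the alignment-based table. All 3 copies thus had higher counts in the other table in every library. The 195 copies together held 6.38%, 8.78% and 5.0% of the counts of Rn7sk and its copies in the other table, against 1.62%, 1.5% and 0.747% in the alignment-based table. The 11 closest copies held 0.260% to 0.321% in the other table, against 0.0264% to 0.0356% in the alignment-based table, so nearly all counts of the family stood on Rn7sk in both.

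The promoter table of RefSeq (GRCm38.p6) held windows of 300 bases, 250 before and 50 after a gene's start, for 7 of the 9 genes, 9 windows in all. The windows of Cdk9 (chr2:32712735-32713034, minus strand), Ccnt2 (chr1:127773914-127774213, plus strand) and the upstream window of Brd2 (chr17:34122558-34122857, minus strand) are shown because the share of the gene's level on transcripts that begin inside them differed. Transcripts that begin inside the Cdk9 window held 66.7 ± 6.39% of Cdk9's TPM (transcript abundance, a level per base of effective length scaled to the same sum in every library, so that genes can be compared) in the other table, against 71.0 ± 9.26% in the alignment-based table (SD, n = 3). For Ccnt2 the share was 77.7 ± 2.48% in the other table, against 70.5 ± 3.58% in the alignment-based table. For the Brd2 window it was 3.45 ± 1.36% in the other table, against 3.45 ± 2.53% in the alignment-based table, and most of Brd2's level stood on transcripts annotated from further downstream. For the next Brd2 window downstream it was 3.48 ± 1.58% in the other table, against 4.53 ± 2.06%. The rest was mostly retained-intron transcripts within the gene, whose annotated ends were not tested as starts of transcription. Capitals mark GGGCGG, the GC box, on either strand.
Cdk9: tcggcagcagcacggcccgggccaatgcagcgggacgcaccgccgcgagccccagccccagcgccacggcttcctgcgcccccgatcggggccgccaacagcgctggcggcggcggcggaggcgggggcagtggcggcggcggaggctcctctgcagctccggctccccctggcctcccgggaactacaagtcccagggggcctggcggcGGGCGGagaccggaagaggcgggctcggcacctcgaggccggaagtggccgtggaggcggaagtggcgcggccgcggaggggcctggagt
Ccnt2: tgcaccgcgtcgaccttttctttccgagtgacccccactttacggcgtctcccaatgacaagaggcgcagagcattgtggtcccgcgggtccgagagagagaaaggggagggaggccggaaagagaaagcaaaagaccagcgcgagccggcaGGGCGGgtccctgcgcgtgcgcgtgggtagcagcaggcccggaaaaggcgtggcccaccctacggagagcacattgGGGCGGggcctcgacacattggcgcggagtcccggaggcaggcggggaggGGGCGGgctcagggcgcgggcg
Brd2: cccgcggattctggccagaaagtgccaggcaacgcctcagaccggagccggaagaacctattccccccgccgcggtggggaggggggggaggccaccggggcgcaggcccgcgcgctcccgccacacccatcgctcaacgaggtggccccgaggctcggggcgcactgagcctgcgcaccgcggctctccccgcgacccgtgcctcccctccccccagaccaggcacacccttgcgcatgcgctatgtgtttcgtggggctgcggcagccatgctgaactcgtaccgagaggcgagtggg

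GGGCGG or its reverse complement stood in 8 of the 9 windows, against 35.7% of all 32851 promoter windows, and the Brd2 window shown was the one without it. TATAAA and CACGTG, searched on both strands, stood in 0 of the 9 windows, against 13.6% and 7.15% of all windows. These are matches of letters only, and nothing was read from them about a factor.

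Depth in the gene table was 12502177, 21683473 and 16844974 counts in replicates 1, 2 and 3, and the start RNA was 1 µg, 250 ng and 500 ng. Replicate 1, with the most start RNA, had the lowest depth and the largest share of counts on protein-coding genes, 68.98% against 57.4% and 60.6%. All 10 macrophage markers reached 1 TPM in every library, led by Adgre1 at 422 ± 65.5 TPM (SD, n = 3). Ctsb followed at 219.8 ± 46.8. The 25 markers of other types covered endothelial, erythroid and dendritic cells, fibroblasts, lymphocytes and neutrophils. Of them 2 (Vwf at 25.5 ± 10.4 and Alas2 at 4.43 ± 1.02) reached 1 TPM in every library and 7 had no count in any, and their summed level was 22.2 to 42.4 TPM. A lower level in such bulk RNA cannot be told apart from fewer cells that make the RNA.

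The 9 genes spanned a wide range of levels. In the gene table Rn7sk stood at 16913 ± 4789 TPM (SD, n = 3), far above the protein genes. Brd2 led the protein genes in TPM, followed by Cdk9 and Ccnt2 at nearly the same level and then Ccnt1. Brd3, Mepce, Hexim1 and Larp7 lay at 12.0 TPM or lower in every library. All 8 protein genes reached 1 TPM in every library, against 41.1% of all 22015 protein-coding genes, and 4 of the 8 reached 10 TPM, against 19.1% of them. Brd2 was the sole one of the 8 at 100 TPM or more in every library, against 2.07% of all protein-coding genes. The other transcript table had 8 of the 8 at 1 TPM in every library too, against a background of 52.1%. The order of the upper genes depended on the unit. In CPM, counts scaled to library depth without division by length, Ccnt2 had 365 ± 42.2 and Brd2 344 ± 39.3. Ccnt1 followed at 122 ± 15.3 and Cdk9 at 107 ± 8.03. TPM of a gene sums all its annotated transcripts. The protein-coding ones held 15.1 ± 0.607% of it for Brd2 and 44.8 ± 13.0% for Cdk9 in the alignment-based table.

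**Figure D1:**
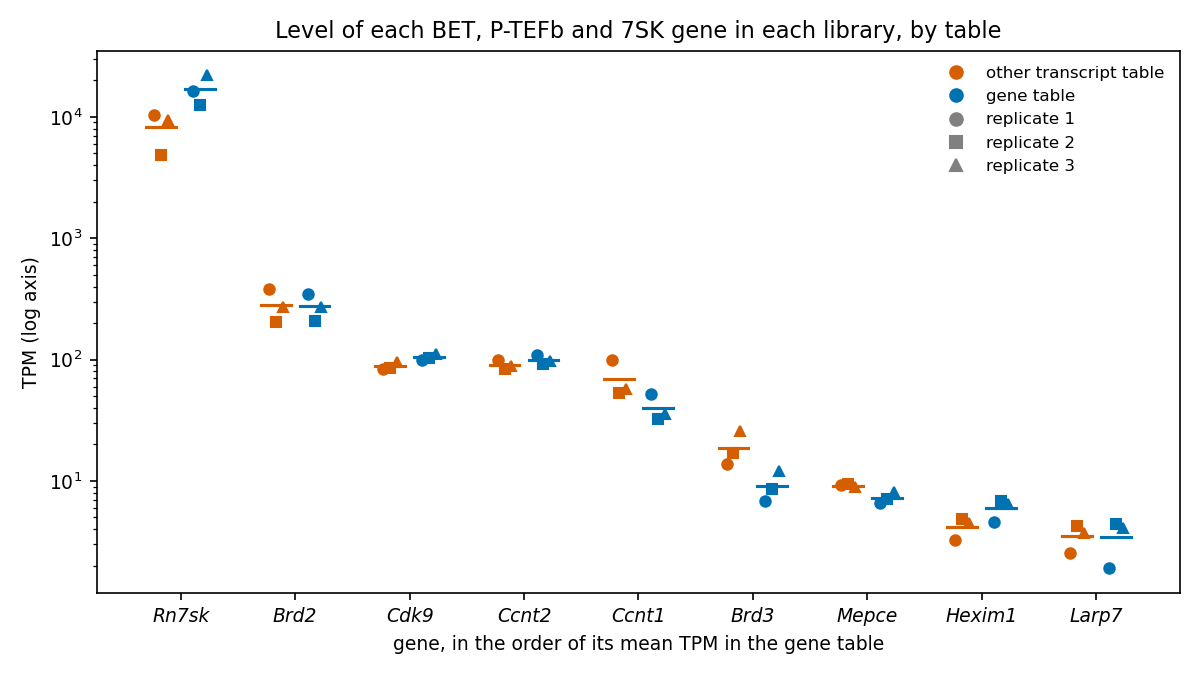
TPM of each gene on a log axis in the other transcript table (orange, left) and the gene table (blue, right), with 1 point for each library and a line at the mean of 3 libraries. Rn7sk lies between 4858 and 21999.8 TPM, Brd2, Cdk9, Ccnt2 and Ccnt1 form an upper group of protein genes, and Brd3, Mepce, Hexim1 and Larp7 a lower one.

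Brd2 and Brd3 are paralogs that carry a pair of bromodomains each. Brd2 (chromosome 17, 34112023 to 34122634, minus strand) had 349.8, 209 and 272 TPM in replicates 1, 2 and 3, with a mean of 277 ± 70.7. Replicate 1 was high and replicate 2 low. Brd3 (chromosome 2, 27445579 to 27507662, minus strand) had 6.78, 8.61 and 12.0 TPM, with a mean of 9.13 ± 2.65, and replicate 3 was high. Brd2 exceeded Brd3 in each library, with no overlap, by 4.78 ± 0.62 in log2(TPM + 1), a TPM ratio of 32.8 ± 16.3. The exact two-sided sign-flip permutation test over libraries gave p = 0.25, which is the smallest p that 3 libraries allow, and the Benjamini-Hochberg value over the 7 pairs was 0.25. Brd3 was higher in the other table, at 18.8 ± 6.30 TPM, against 9.13 in the gene table, and the difference between Brd2 and Brd3 was 3.85 ± 0.73. Brdt, the testis-expressed BET paralog, was at 0.437 ± 0.282 TPM, on 12 to 19 counts per library.

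For Brd2 the spread depended on the unit. In CPM, counts scaled to library depth without division by length, Brd2 had 371, 299 and 363, a coefficient of variation of 11.4%, against 25.6% in TPM. The effective length given for the gene was 1221, 1584 and 1495 bases, shortest in replicate 1, where the TPM was highest. The part of that length in the TPM spread was not tested. Ccnt1 had the same feature, with coefficients of 12.5% in CPM and 26.3% in TPM. Other genes differed less between the units: Ccnt2 had 11.6% in CPM and 9.14% in TPM, and Larp7 41.6% in CPM and 39.2% in TPM.

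Cdk9, the kinase of P-TEFb, and the cyclins Ccnt1 and Ccnt2, its regulatory subunits, lay in the upper group. Cdk9 (chromosome 2, 32705784 to 32713076, minus strand) had 98.8, 104 and 111 TPM, with a mean of 104.8 ± 6.37, the smallest relative spread of the 9 genes in the gene table at 6.08%. Mepce had the smallest in the other table, at 3.67%, beside 6.99% for Cdk9. Ccnt2 (chromosome 1, 127774164 to 127808061, plus strand) had 109.9, 92.0 and 97.8 TPM, with a mean of 99.9 ± 9.13. The libraries of the 2 genes overlapped: Cdk9 was higher in replicates 2 and 3 and Ccnt2 in replicate 1. Their difference, Cdk9 minus Ccnt2, was 0.07 ± 0.19 on the log2 scale (exact two-sided sign-flip p = 0.5, Benjamini-Hochberg 0.5 over the 8 neighbouring pairs), less than its spread. It was 0.18 ± 0.01 without replicate 1.

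Ccnt1 (chromosome 15, 98538689 to 98570923, minus strand) had 52.0, 32.4 and 35.5 TPM, with a mean of 40.0 ± 10.5. Replicate 1 was high and the others were close together. Ccnt1 lay below Ccnt2 in each library, by 1.33 ± 0.23 on the log2 scale (Ccnt1 minus Ccnt2 was -1.33, exact two-sided sign-flip p = 0.25). Ccnt1 had 99.2, 52.9 and 57.0 TPM in the other table, and Ccnt1 minus Ccnt2 was -0.42 ± 0.37. In replicate 1 of that table Ccnt1 stood above Ccnt2, at 99.2 against 99.0 TPM, so the order of the cyclins there was not that of the other libraries. Cdk9 was compared with the sum of both cyclins. Cdk9 minus that sum was -0.41 ± 0.26 in the gene table, negative in each library (exact two-sided sign-flip p = 0.25), with a TPM ratio of 0.761 ± 0.1303. The same difference was -0.84 ± 0.34 in the other table. Both sides of it count all annotated transcripts. The protein-coding ones held 39.8 ± 12.2% of Cdk9's TPM, 17.0 ± 4.02% for Ccnt1 and 18.8 ± 3.37% for Ccnt2 in the other table. In the alignment-based table they held 44.8 ± 13.0%, 40.0 ± 5.86% and 20.0 ± 5.82%. The difference on protein-coding transcripts alone was not tested.

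The genes of the 7SK proteins lay far below the P-TEFb genes in chromatin RNA. Protein was not measured, so ratios between these genes are not ratios of subunits. Mepce, the capping enzyme of the 7SK RNA (chromosome 5, 137781906 to 137787655, minus strand), had 6.52, 7.08 and 8.12 TPM, with a mean of 7.24 ± 0.812. Hexim1, which inhibits P-TEFb when bound to 7SK (chromosome 11, 103116231 to 103119725, plus strand), had 4.56, 6.88 and 6.45 TPM, with a mean of 5.96 ± 1.23. Replicate 1 was the lowest for both. Larp7, which binds the 3′ end of 7SK (chromosome 3, 127536714 to 127553349, minus strand), had 1.91, 4.42 and 4.07 TPM, with a mean of 3.47 ± 1.36. Its counts were 29, 117 and 95, the fewest of the 9 genes, and replicate 1 was again low. Hexim2, the paralog of Hexim1 that can replace it in the complex, had 1.37, 3.01 and 1.87 TPM, below Hexim1 in each library of the gene table. The order was the opposite in the other table, where Hexim2 had 4.02, 5.63 and 5.82 TPM and Hexim1 3.23, 4.82 and 4.496.

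Hexim1 lay below Cdk9 in each library, with Hexim1 minus Cdk9 at -3.94 ± 0.22 on the log2 scale and a TPM ratio of 0.0567 ± 0.010. Larp7 minus Mepce was -0.93 ± 0.40, and Hexim1 minus Larp7 was 0.68 ± 0.22. Each of these had the same sign in 3 of 3 libraries and an exact two-sided sign-flip p of 0.25. Rn7sk minus Larp7 was 11.90 ± 0.66, the widest gap among the pairs. Neighbours in the lower group were close: Brd3 minus Mepce was 0.27 ± 0.23 and Mepce minus Hexim1 0.25 ± 0.20. Both had the same sign in 3 of 3 libraries. Neither exceeded its own SD in every pair of libraries: without replicate 2 the first was 0.28 ± 0.33, and the other was 0.16 ± 0.18 without replicate 1 and 0.24 ± 0.28 without replicate 3. In the other table they were 0.92 ± 0.48 and 0.99 ± 0.24. The wider steps in the order were Rn7sk minus Brd2 at 5.92 ± 0.40, Ccnt1 minus Brd3 at 2.02 ± 0.67 and Brd2 minus Cdk9 at 1.36 ± 0.42. The size of the step from Rn7sk to Brd2 depended on the table and on length. It was 4.82 ± 0.27 in the other table, and 2.19 ± 0.33 in CPM scaled by TMM factors, without division by length. Of the 8 neighbouring pairs, 7 had the same sign in all libraries of the gene table (exact two-sided sign-flip p = 0.25, Benjamini-Hochberg 0.286). Neighbours were taken from the order of mean TPM in these same libraries, so their signs were largely set by the sorting. Their p-values are thus no test of the order.

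**Figure D2:**
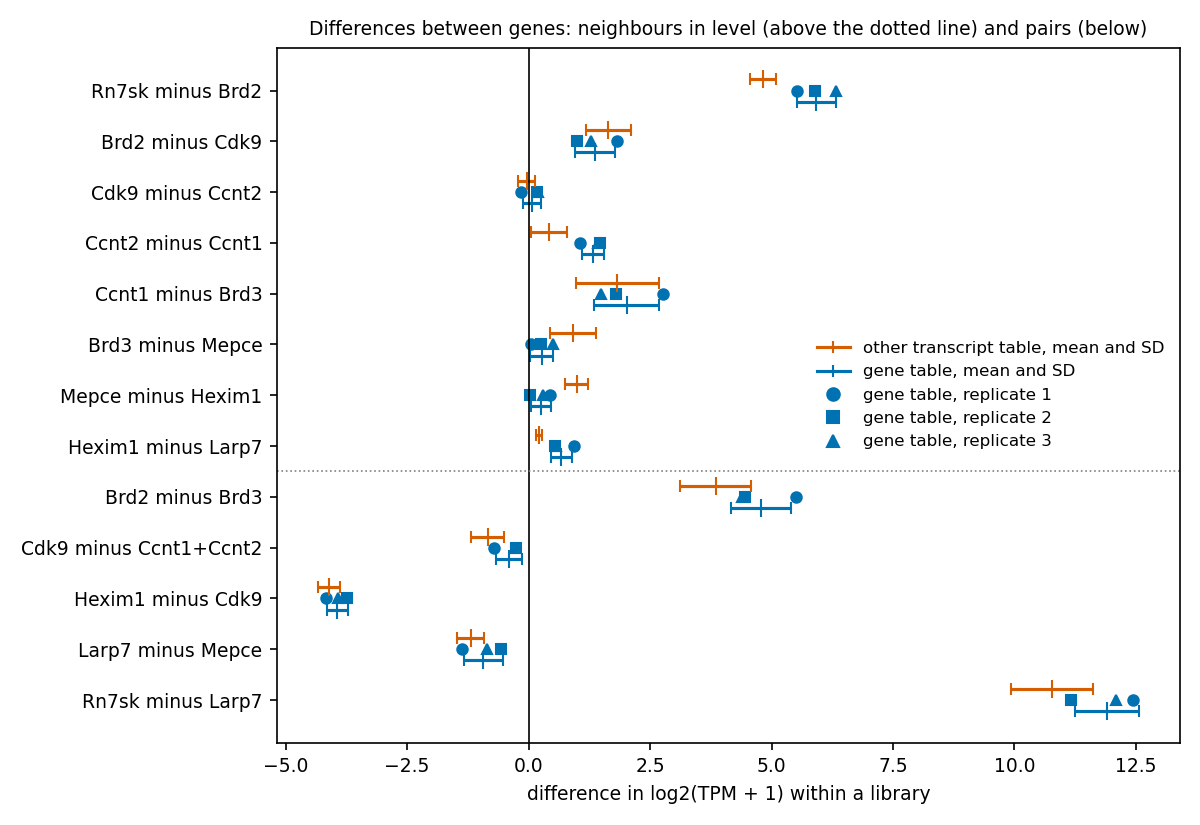
Differences in log2(TPM + 1) between 2 genes of the same library, as mean ± SD of 3 libraries in the other transcript table (orange) and the gene table (blue), with 1 blue point for each library. Cdk9 minus Ccnt2 straddles 0 in both tables, and Ccnt2 minus Ccnt1 is 1.33 in the gene table but smaller in the other table.

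The variation between libraries was also measured on counts. The edgeR biological coefficient of variation, fitted with an intercept only on 14270 genes and drawn towards the trend of genes of like abundance, had a median of 0.270 over all genes. Cdk9, Ccnt1, Brd2, Ccnt2 and Mepce had values of 0.204 to 0.229. Hexim1, Rn7sk and Brd3 had 0.258 to 0.264. Larp7 was at 0.357, above 88.5% of all genes tested, but above 58.4% of 23263 genes with no filter on low counts. Each of the 8 protein genes had its highest or lowest TPM of the gene table in replicate 1: Brd2, Ccnt1 and Ccnt2 were highest there and Cdk9, Brd3, Mepce, Hexim1 and Larp7 lowest. Across the 9039 protein-coding genes at 1 TPM or more the share was 78.8%, so this was common. In the other table it held for 7 of the 8, all but Mepce, beside 80.1% of protein-coding genes. Replicate 1 was also the library with the lowest depth and the most start RNA. The part of these in the levels was not tested.

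Rn7sk and Brd3 were the genes on which the deposited tables differed most in TPM, in opposite directions. Rn7sk had 26888, 23978 and 34740 estimated counts in the other table, against 23270, 22838 and 33200 expected counts in the gene table. Counts were thus alike, with a fold of 1.16, 1.05 and 1.05. Its TPM in the other table was 10372, 4858 and 9402, against 16248, 12492 and 21999.8 in the gene table. Replicate 2 was the lowest in both tables, while the highest was replicate 1 in the other table and replicate 3 in the gene table. The other table minus the gene table was -1.08 ± 0.38 in log2(TPM + 1), lower in 3 of 3 libraries (exact two-sided sign-flip p = 0.25).

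The difference in TPM was the sum of 3 terms. The effective length of Rn7sk was 151, 148 and 146 bases in the other table, against 132, 93.1 and 100.3 in the gene table. On the log2 scale the length was larger in the other table by 0.47 ± 0.24, which lowers TPM by that amount. The library sum of counts per effective length, by which TPM is scaled, was larger there by 0.73 ± 0.06, and the count of Rn7sk by 0.11 ± 0.08. That library sum was worked out from the TPM, count and length of Rn7sk, so the 3 terms add up by construction. As a share of all counts Rn7sk took 0.133%, 0.0620% and 0.118% in the other table, against 0.186%, 0.105% and 0.197% in the gene table. The exact Clopper-Pearson 95% intervals of these shares did not overlap between the tables: for replicate 2, 0.0613% to 0.0628% in the other table, against 0.104% to 0.107% in the gene table. Such intervals cover counting error only, since reads without molecular identifiers are not independent molecules, and both tables come from the same libraries. The protein genes moved in both directions: the fold of TPM, other table over gene table, was 2.05 ± 0.0999 for Brd3, 1.71 ± 0.168 for Ccnt1, 1.28 ± 0.169 for Mepce, 1.07 ± 0.229 for Larp7 and 1.02 ± 0.0573 for Brd2. It was 0.905 ± 0.00403 for Ccnt2, 0.838 ± 0.0215 for Cdk9 and 0.702 ± 0.00629 for Hexim1, beside a median of 1.29 ± 0.0398 over 8951 protein-coding genes.

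**Figure D3:**
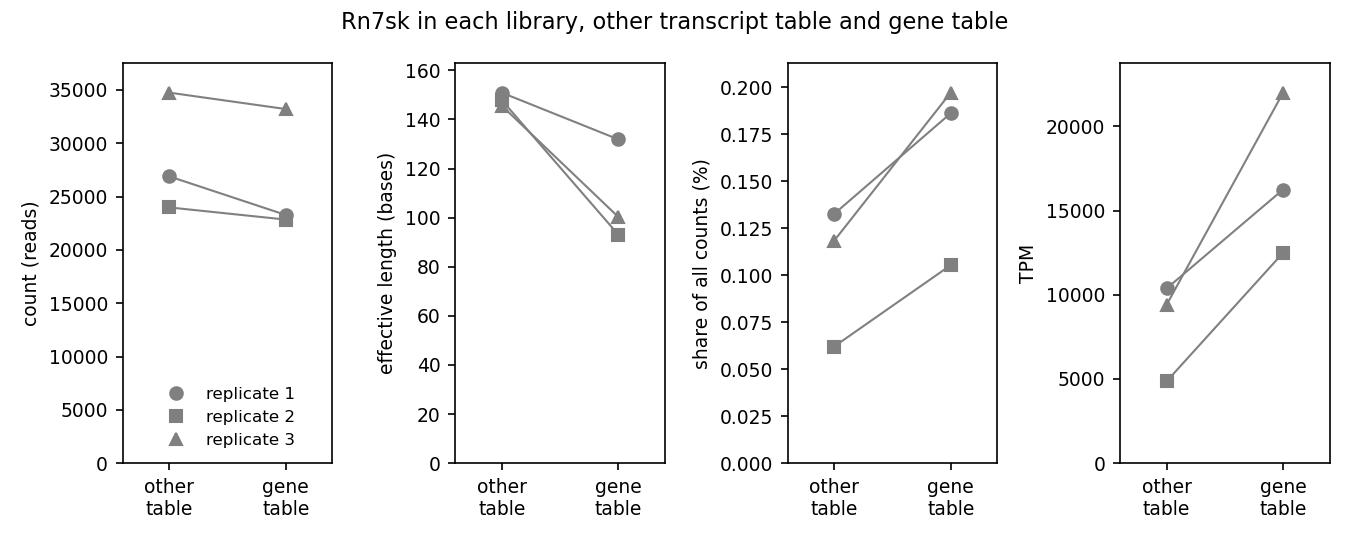
Count, effective length, share of all counts and TPM of Rn7sk in each of 3 libraries, in the other transcript table (left of each panel) and the gene table (right), with a line for each library and axes from 0. Counts are close between the tables, while the effective length is larger and the TPM lower in the other table in every library.

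A list of 8 other small RNAs of RNA polymerase III or the minor spliceosome was measured alongside, annotated as 9 genes. Of these 6 reached 1 TPM in every library. Rmrp, the RNA of RNase MRP, is annotated as 2 genes of that symbol, between which its reads may be split, at 88697 ± 51831 and 14975 ± 13680 TPM. Rnu11, Rny1 and Rny3 were listed at 0 in every library of the gene table, which gives Rny1 and Rny3 an effective length of 0. It gives Rnu11 one of 2.79, 1.62 and 1.72 bases, so none of these zeros shows absence. The other table had Rny3 at 3.82, 10.6 and 11.4 TPM, Rny1 at 3.58, 3.38 and 0, and Rnu11 at 0.

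Chromatin-bound RNA holds transcripts that are still being spliced, and an annotation can show unspliced reads as retained-intron transcripts. Brd2 had the largest retained-intron share of TPM among the genes by its mean in both transcript tables. In the other table that rank rested on replicate 1, since Ccnt1 was above Brd2 in replicates 2 and 3, and by share of counts in the alignment-based table Larp7 was above Brd2, at 43.9 ± 14.4%. Its share in the other table was 85.6%, 74.9% and 77.2%, against 76.2%, 66.1% and 68.6% in the alignment-based table, over 7 such transcripts. The median over 5881 protein-coding genes that have one was 45.9 ± 1.15% in the other table and 48.1 ± 2.41% in the alignment-based one. As a share of counts, where long transcripts weigh more, Brd2's value was 31.3 ± 7.67%, beside a median of 31.7 ± 3.22%. The highest transcript of the alignment-based table was Brd2-204, a retained-intron transcript of 2 exons at the 3′ end of the gene (34112684 to 34113732), with 49.9, 25.3 and 40.8 TPM in the other table, against 71.9, 39.8 and 62.3 in the alignment-based one. Brd2-217, a retained-intron transcript of 4 exons, was the highest in the other table, with 81.9, 40.2 and 47.7 TPM, against 19.3, 0.47 and 0 in the alignment-based one. The tables thus disagreed on which transcript of Brd2 was highest. Brd2-202, the protein-coding transcript with the highest mean TPM, had 22.9, 10.3 and 18.1 TPM in the other table, against 41.2, 7.10 and 18.1 in the alignment-based one. Protein-coding transcripts of Brd2 held 12.6 ± 2.58% of its TPM in the other table, against 15.1 ± 0.607% in the alignment-based table.

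For the cyclins the share depended on the table and the unit, most of all for Ccnt1. The retained-intron share of Ccnt1 was 78.2 ± 1.45% in the other table, against 32.5 ± 0.840% in the alignment-based table, with no overlap between the libraries of the tables, and 13.9 ± 1.65% as a share of counts. Ccnt1-203, a processed transcript of 2 exons at the 3′ end, held 1.79 ± 2.95% of Ccnt1's TPM in the other table, against 24.9 ± 6.64% in the alignment-based one. Ccnt1-208, the protein-coding transcript of 10 exons, had 12.3, 9.97 and 11.2 TPM in the other table, against 17.3, 14.1 and 15.4 in the alignment-based one, so it was lower in the other table, where the gene's sum was higher. For Ccnt2 the share was 58.9 ± 1.43% in the other table, against 50.4 ± 2.34% in the alignment-based table, and 25.8 ± 2.16% as a share of counts. Both cyclins were thus below the median of all genes by counts, and Ccnt1 also by TPM in the alignment-based table. By TPM in the other table both were above the median of 45.9%, and Ccnt1 also above the upper quartile of 63.4%. Ccnt2 was slightly above the median of 48.1% in the alignment-based table. Ccnt2-207, a processed transcript, held 22.3 ± 2.48% in the other table, against 29.5 ± 3.58%. Ccnt2-202, the one protein-coding transcript of Ccnt2 with a TPM above 0, held 18.8 ± 3.37% in the other table, against 20.0 ± 5.82% in the alignment-based table.

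Cdk9 had a retained-intron share of 17.8 ± 2.09% in the other table, against 13.9 ± 2.47% in the alignment-based table, and 23.0 ± 7.79% as a share of counts, where the quartiles of all genes were 12.8% and 56.5%. It had a large share on transcripts annotated as targets of nonsense-mediated decay. Those transcripts took 42.4 ± 10.2% in the other table, against 41.3 ± 11.3% in the alignment-based one. Most of it was Cdk9-208, with 43.5, 26.2 and 33.6 TPM in the other table, against 52.4, 31.4 and 39.2 in the alignment-based one. Replicate 1 was high in both. Cdk9-202, a protein-coding transcript with a start further downstream, had 0, 6.25 and 8.93 TPM in the other table, against 0, 15.6 and 19.4 in the alignment-based one, so replicate 1 had none in either table. Cdk9-201, the protein-coding transcript that begins in the promoter window, had 18.6, 27.0 and 26.3 TPM in the other table, against 28.2, 35.5 and 35.6.

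Among the 7SK proteins, the retained-intron share of Larp7 was 44.0 ± 6.85% in the other table, against 56.9 ± 13.4% in the alignment-based table, on few counts. That of Mepce was 21.1 ± 2.70% in the other table, against 17.7 ± 5.17%, and 1.77 ± 0.410% as a share of counts. Mepce-201, a protein-coding transcript of 4 exons, had 3.57, 3.73 and 4.52 TPM in the other table, against 4.93, 5.17 and 6.01. Hexim1 is a gene of 1 exon with 1 transcript, and Brd3 has no annotated retained-intron transcript, so neither gave a share. For Brd3, 54.97 ± 3.91% of TPM stood on its 7 protein-coding transcripts in the other table, against 58.6 ± 8.45% in the alignment-based table, and the rest on 3 processed transcripts.

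**Figure D4:**
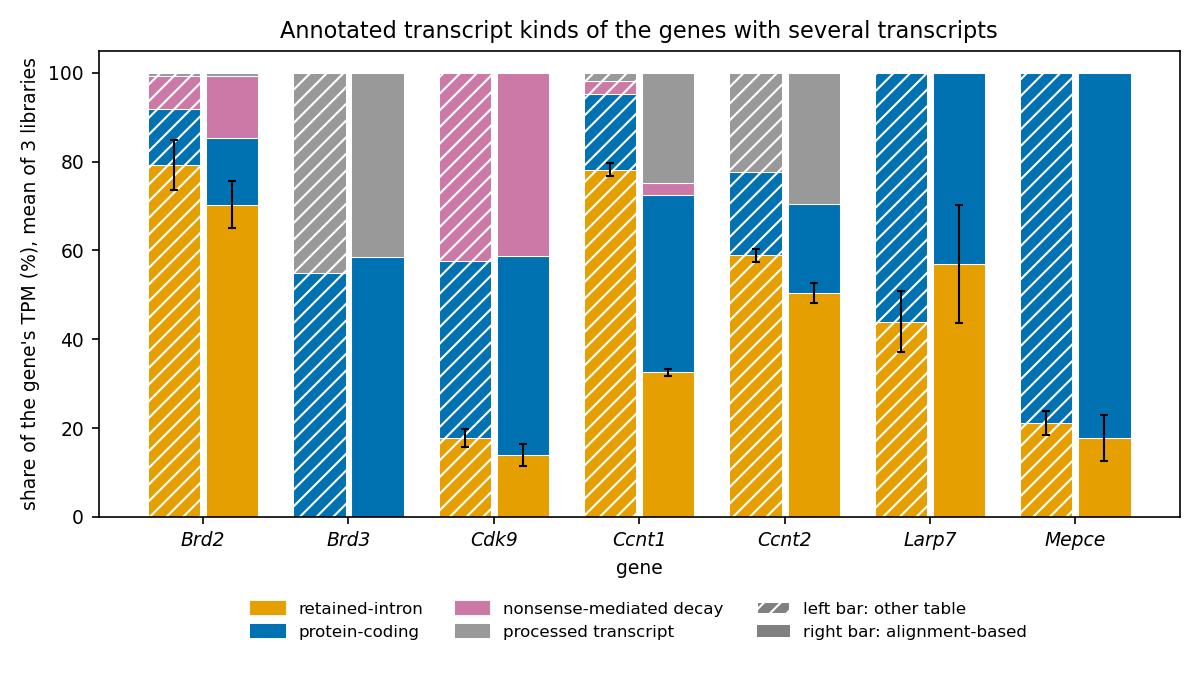
Share of each gene's TPM by annotated transcript kind, as the mean of 3 libraries, in the other transcript table (left, hatched) and the alignment-based table (right); the error bars are the SD of the retained-intron share. Brd2 is mostly retained-intron in both, Ccnt1 changes most between the tables, and Cdk9 has the largest share of nonsense-mediated decay transcripts.

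Genes that overlap these on the other strand bear on the counts, because the sources used here do not say whether the counting used strand. H2-DMa, a major histocompatibility gene, overlaps 3094 bases of the Brd2 gene and was at 17.7 ± 3.55 TPM. CR974462.3, an antisense RNA within Brd2, was at 8.02 ± 2.18 TPM on 13.7 to 29.3 counts per library. Both were far below Brd2. 9330020H09Rik, antisense to Ccnt1, was at 0.970 ± 0.320 TPM. The miRNA genes Mir302a, Mir302b, Mir302c, Mir302d and Mir367 lie within Larp7, Mir2861 and Mir3960 within Cdk9 and Mir7578 within Brd3, and all 8 were listed at 0 in the gene table, which gives them an effective length of 0. The other table had Mir7578 at 0, 7.28 and 16.4 TPM, Mir302a and Mir302b between 1.96 and 3.64 TPM in every library, and Mir302c, Mir302d and Mir367 above 0 in some.

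The wider machinery of elongation was expressed around these genes. The median of the 8 protein genes was 24.6 ± 4.48 TPM in the gene table (SD, n = 3 libraries), beside 0.353 ± 0.00577 over all 22015 protein-coding genes and 10.95 ± 0.427 over the 9039 at 1 TPM or more. It was 41.7 ± 6.96 TPM in the other table. Levels below are of the gene table unless the other is named. Of the 10 genes of the super elongation complex, the assembly that carries P-TEFb to paused polymerase, 7 reached 1 TPM in every library and the median was 5.36 ± 1.18 TPM. Ell2 led it with 312, 143 and 169 TPM, in which replicate 1 was high, followed by Aff1 at 79.5 ± 8.17, and Aff3 had no count in any library of the gene table. Aff4, at 135.0 ± 38.6, stood above Aff1, at 94.7 ± 17.5, in the other table. The 6 genes of DSIF and NELF, the pausing factors, all reached 1 TPM, with Supt5 at 44.6 ± 3.52, Nelfe at 28.8 ± 4.72, Nelfb at 17.0 ± 2.91, Nelfcd at 13.7 ± 2.79, Nelfa at 6.58 ± 0.516 and Supt4a at 4.84 ± 0.715. All 8 other transcription kinases and cyclins reached 1 TPM, led by Cdk12 at 76.3 ± 20.1 and Cdk13 at 69.3 ± 5.54, both below Cdk9 on average, with Mnat1 the lowest at 4.32 ± 0.820. Cdk13 was above Cdk12 in the other table, at 77.3 ± 8.75 against 65.5 ± 17.6.

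The 12 subunits of RNA polymerase II all reached 1 TPM, with a median of 4.21 ± 1.23 TPM. Polr2b led them at 23.6 ± 3.18, Polr2a, the catalytic subunit, was at 17.4 ± 1.64, and Polr2h was the lowest at 1.14 ± 0.110. Polr2g led in the other table, at 31.8 ± 10.9 against 9.81 ± 1.75 in the gene table, and Polr2l was the lowest at 1.51 ± 0.0848. All 10 proteins known to bind 7SK or to release P-TEFb from it reached 1 TPM, with a median of 34.6 ± 3.25. Hnrnpa2b1, which binds 7SK freed of P-TEFb, stood at 771 ± 55.6 TPM, above Brd2, and was followed by Srsf2 at 106 ± 20.6. Ddx21 was the lowest of that list at 10.1 ± 0.520. In the other table Hnrnpa2b1 led too, at 587 ± 7.94, Hnrnpa1 followed at 81.95 ± 2.51, and Jmjd6 was the lowest at 8.01 ± 1.22. Of 32 other bromodomain genes 31 reached 1 TPM, with a median of 38.2 ± 2.43. Phip at 203 ± 71.9 and Baz2b at 133 ± 20.4 led them, both below Brd2 on average, and Cecr2 was the lowest at 0.193 ± 0.0808. In the other table all 32 reached 1 TPM, Cecr2 was at 7.99 ± 3.89, and Zmynd8, at 158 ± 32.3, stood above Baz2b, at 149.8 ± 25.9. These are counts and medians of 3 libraries of 1 condition, and nothing was called from them.

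**Figure D5:**
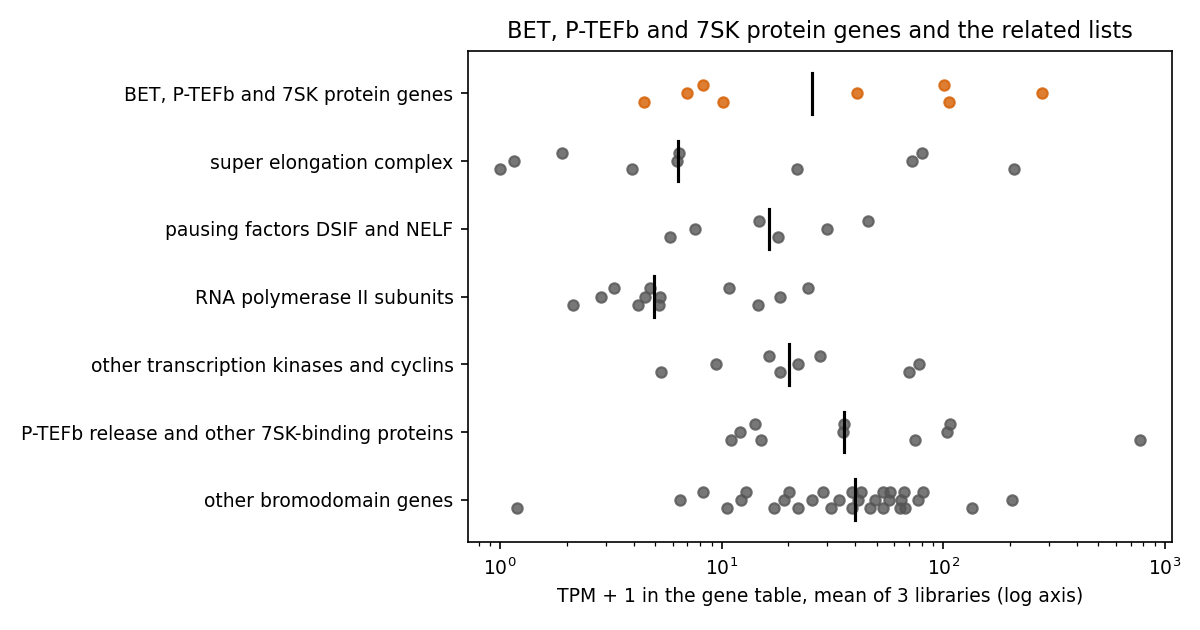
Mean TPM + 1 of 3 libraries in the gene table on a log axis, 1 point for each protein gene, for the BET, P-TEFb and 7SK protein genes (orange) and 6 related lists (grey), with a black line at the median of the plotted means. The protein genes span from Larp7 at 3.47 to Brd2 at 277 TPM, and Hnrnpa2b1, at 771 TPM, is the highest point.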

How the data were processed

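Total RNA-seq of the chromatin fraction was measured in 3 libraries of 1 group of mouse macrophages. Per the file headers and deposited notes, the authors used the mm10 genome and GENCODE M21; the aligner and both quantifiers are not stated in the sources used here. The authors deposited expected counts (a gene table and an alignment-based transcript table) and estimated counts (the other transcript table), each with TPM. Rows outside the annotation were left out (0.292% to 1.34% of counts).

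Genes were compared within a library as log2(TPM + 1), which understates differences of low genes, by a two-sided sign-flip test (exact permutation of signs) with Benjamini-Hochberg adjustment over 8 neighbouring and 7 chosen pairs; no p could be below 0.25. A difference is called larger than its spread when it exceeds its SD. Expected counts were rounded for edgeR 4.0.16 (TMM factors, genes with 10 counts or more in 2 libraries); DESeq2 1.42.0 size factors were an alternative. The edgeR step was tested on simulated data. Sequences came from GENCODE M21 transcripts and RefSeq promoters, searched with blastn 2.17.0. All 9 genes, 2 highest and 1 lowest genes of each list, and overlapping genes at 1 TPM or more were named; copies of Rn7sk, other overlapping genes and single transcripts were chosen after their values were seen. A gene of the lists is not reported here. The genes and lists were chosen with earlier results of these data known. The alternatives tried were another pseudocount, table, scaling, length correction, threshold and filter, and leaving out each library.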

Additional observations from a re-analysis of the deposited data

How the results depend on the processing

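No paired analysis was possible because all libraries belong to 1 group. Of 129 alternative values of the differences between genes and of Rn7sk between tables, 122 kept their sign and their side of their own SD, 3 changed sign, 3 fell under their SD and 1 rose above it. Many of them could hardly change. A scaling of a whole library that keeps the division by length cancels in a difference within it, apart from the pseudocount. The 122 thus overstate how robust the differences were. Cdk9 minus Ccnt2 was -0.041 in the other transcript table and -1.76 with TMM-scaled CPM and no division by length, and Mepce minus Hexim1 was -0.25 with that scaling, which weighs long genes more by construction. With 1 library left out, the range was 0.011 to 0.18 for Cdk9 minus Ccnt2, 0.15 to 0.38 for Brd3 minus Mepce and 0.16 to 0.36 for Mepce minus Hexim1. At 10 TPM, 4 of the 8 protein genes passed in place of 8. Levels moved by more than 1 SD in 22 of 80 cases and retained-intron shares in 9 of 36. Counts of genes at 1 TPM changed by more than 1.5 times, or to or from none, in 11 of 102. The edgeR coefficients moved by less than 1.5 times in all 20. Larp7 had the fewest counts, with 29 in replicate 1, and so the widest counting error. With 3 libraries no test could reach a p under 0.25.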
